A study of Homo sapiens with 18 samples.

Results

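The 37 genes described here encode factors that make ribosomes in the nucleolus, and their transcripts were followed in A375 cells, an established human melanoma line, grown with or without IMD-0354, an inhibitor of the kinase IKKβ. The genes were chosen by name for their function in ribosome biogenesis, with earlier results of these data known, and all 37 were found among the 60504 gene identifiers of the table. All 37 also passed the filter of at least 1 TPM (transcripts per 1000000) in at least 3 of 18 libraries, as did 14936 genes in all. The 18 libraries fall into 6 groups of 3: untreated cells at 24 h, cells given 0.32, 0.63 or 1.25 µM IMD-0354 for 24 h, untreated cells at 48 h, and cells given 0.63 µM for 48 h. All groups share the same parental line, and the labels name no solvent control for the untreated cells. Whether each library had its own culture is not stated, so the p-values rest on a spread between libraries that may be technical.

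Ribosome assembly starts when RNA polymerase I transcribes the long precursor of the ribosomal RNAs in the nucleolus. Small nucleolar ribonucleoproteins (snoRNPs) then guide chemical marks onto the precursor: box C/D particles guide methylation and box H/ACA particles guide pseudouridylation. A series of assembly factors folds and cuts the precursor into the small and the large subunit. Growing tumour cells depend on a high output of this pathway, and MYC is a known activator of many of its genes.

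The libraries were made from transcript 3' ends and the values are TPM, so the read depth behind them is unknown. TPM divides by transcript length although 3' libraries yield reads mainly from transcript ends, so levels are compared within a gene and not between genes. The number of genes above 0 per library ranged from 14647 to 17029. Among the melanoma markers SOX10, MITF, MIA, AXL and NGFR were present, whereas the pigment genes MLANA, PMEL, TYR and DCT were low or at 0. The list of 10 markers also holds S100B, and 7 of the 10 passed the filter. The summed markers of fibroblasts, immune cells, keratinocytes and endothelial cells reached at most 0.75, 0.52, 1.14 and 0.2 TPM in any library. In bulk RNA a lower level in each cell and fewer cells expressing a gene cannot be told apart.

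One library stood apart and bears on every 24 h comparison. Untreated 24 h replicate 2 was the highest of the 18 libraries for 15 of the 37 genes and the lowest for 3 (RRP9, BOP1 and NHP2), against 14.91% and 9.855% of all tested genes. Its ratio to the mean of the other two untreated 24 h libraries was 3.93 for NOP58, 3.59 for TCOF1, 2.81 for RRS1 and 2.17 for NCL, but 0.205 for RRP9 and 0.333 for BOP1. Its melanoma markers summed to 94.99 TPM, against 210.9 and 242.9 TPM in replicates 1 and 3. The called genes, the medians and the counts that rest on the untreated 24 h group are therefore also given without this library, and several uncalled genes are too. In addition, replicate 3 of the 48 h treated group was the lowest library for 15 of the 37 genes, against 14.154% of all tested genes. The 48 h values below include this library unless stated. Apart from the LYAR call they are not given without it, so how far the 48 h differences rest on this library is not shown.

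**Figure D1:**
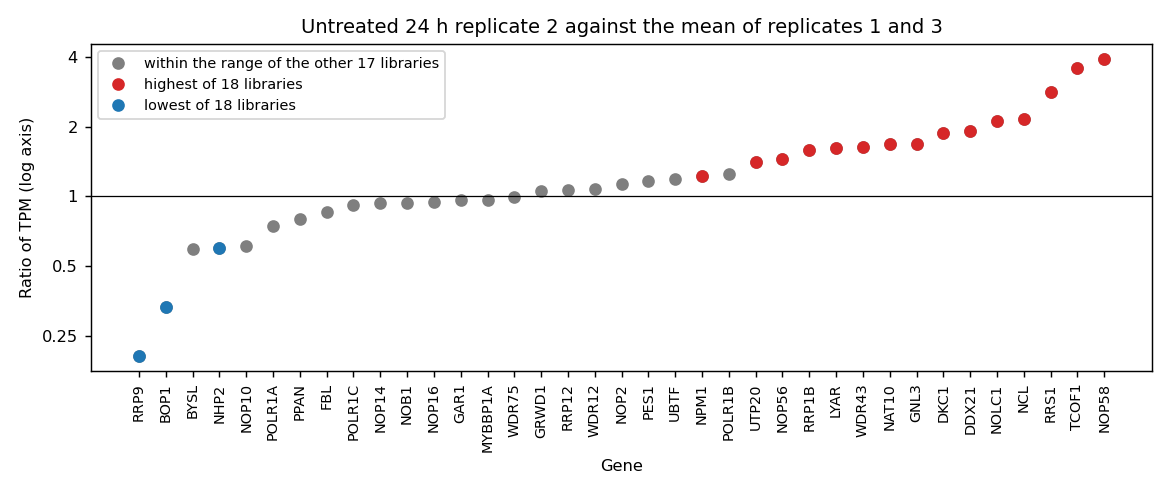
TPM in untreated 24 h replicate 2 divided by the mean TPM of untreated 24 h replicates 1 and 3 (vertical log axis), with 1 point for each of the 37 genes ordered by the ratio; red marks genes for which this library was the highest of the 18, blue the lowest and grey neither. The 15 red points reach 3.93 for NOP58, and the 3 blue points go down to 0.205 for RRP9.

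At 1.25 µM for 24 h, 8 of these genes fell, GRWD1 and NCL by the most, and RRP12 rose. At 0.63 µM WDR43 and NCL fell. At 0.32 µM none of the 37 genes passed the test against untreated cells (limma, Benjamini-Hochberg adjusted p under 0.05 over all 14936 genes), and 0.0268% of all tested genes did (0.0201% lower and 0.0067% higher). At an unadjusted p under 0.05, 0 were lower (3.15% of all tested genes) and 2, BOP1 and WDR12, were higher (2.96%). At 0.63 µM, NCL and WDR43 fell, 2 of 37 or 5.41%, against 0.824% of all tested genes that fell, and none rose, against 1.36% (2.18% in either direction). At 1.25 µM, 8 of the 37 fell (21.6%, against 6.36% of all tested genes) and 1 rose (2.7%, against 4.94%), while 11.3% of all tested genes changed in either direction. After 48 h at 0.63 µM, 1 of the 37, LYAR, fell (2.7%, against 5.68%), and none rose, against 1.95% (7.63% in either direction).

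These counts depended on single libraries. Without untreated 24 h replicate 2, 3 genes were called at 1.25 µM (NCL, GRWD1 and RRP12), 0 at 0.63 µM and 5 at 48 h, where 1293, 142 and 1542 of all tested genes were called in the same fit, against 1688, 326 and 1140 with it. The 5 at 48 h were NCL, NOP56, NHP2, LYAR and TCOF1, all lower, in a fit that kept replicate 3 of the 48 h treated group. The count at 1.25 µM was 2 without replicate 3 of that dose, 3 without its replicate 2, and 14 without untreated 24 h replicate 3, with 960, 1216 and 1676 of all tested genes called in those fits. In a fit of the compared groups alone no member passed at 0.63 or 1.25 µM at 24 h. NCL and GRWD1 kept the 1.25 µM call whichever of the 18 libraries was left out, WDR43 in 16 of 18, TCOF1 in 15, RRP12 and LYAR in 14, NOP56 in 13, DDX21 in 12 and UBTF in 7. At 0.63 µM at 24 h WDR43 kept its call in 13 of 18 and NCL in 4.

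The median difference over the 37 genes was -0.06, -0.18 and -0.33 on the log2(TPM + 1) scale at 0.32, 0.63 and 1.25 µM, and over all tested genes it was 0, 0.004 and -0.01. At 1.25 µM, 27 of the 37 differences were below 0, against 51.7% of all tested genes. At 48 h the median of the 37 was -0.35, but that of all tested genes was also shifted, to -0.15, and with median-of-ratios scaling that of the 37 was -0.15. That scaling also moved the calls over all genes at 48 h from 849 lower and 291 higher to 509 and 496. When untreated 24 h replicate 2 was left out, the median of the 37 was 0.03 at 0.32 µM, -0.07 at 0.63 µM and -0.23 at 1.25 µM, and 27 of the 37 were still below 0 at 1.25 µM. By ranges alone, at 1.25 µM all 3 treated libraries lay below all 3 untreated ones for 12 of the 37 genes (13.7% of all tested genes) and above them for 1 (12.4%). At 0.63 µM these counts were 6 (9.26%) and 3 (10%), at 0.32 µM 1 (4.59%) and 3 (4.08%), and at 48 h 10 (21.3%) and 1 (9.23%). With replicate 2 set aside, and thus 2 untreated libraries, the 24 h counts were 15 (20.1%) and 2 (17.4%) at 1.25 µM, 6 (14.9%) and 4 (15%) at 0.63 µM, and 1 (10%) and 3 (8.51%) at 0.32 µM.

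**Figure D2:**
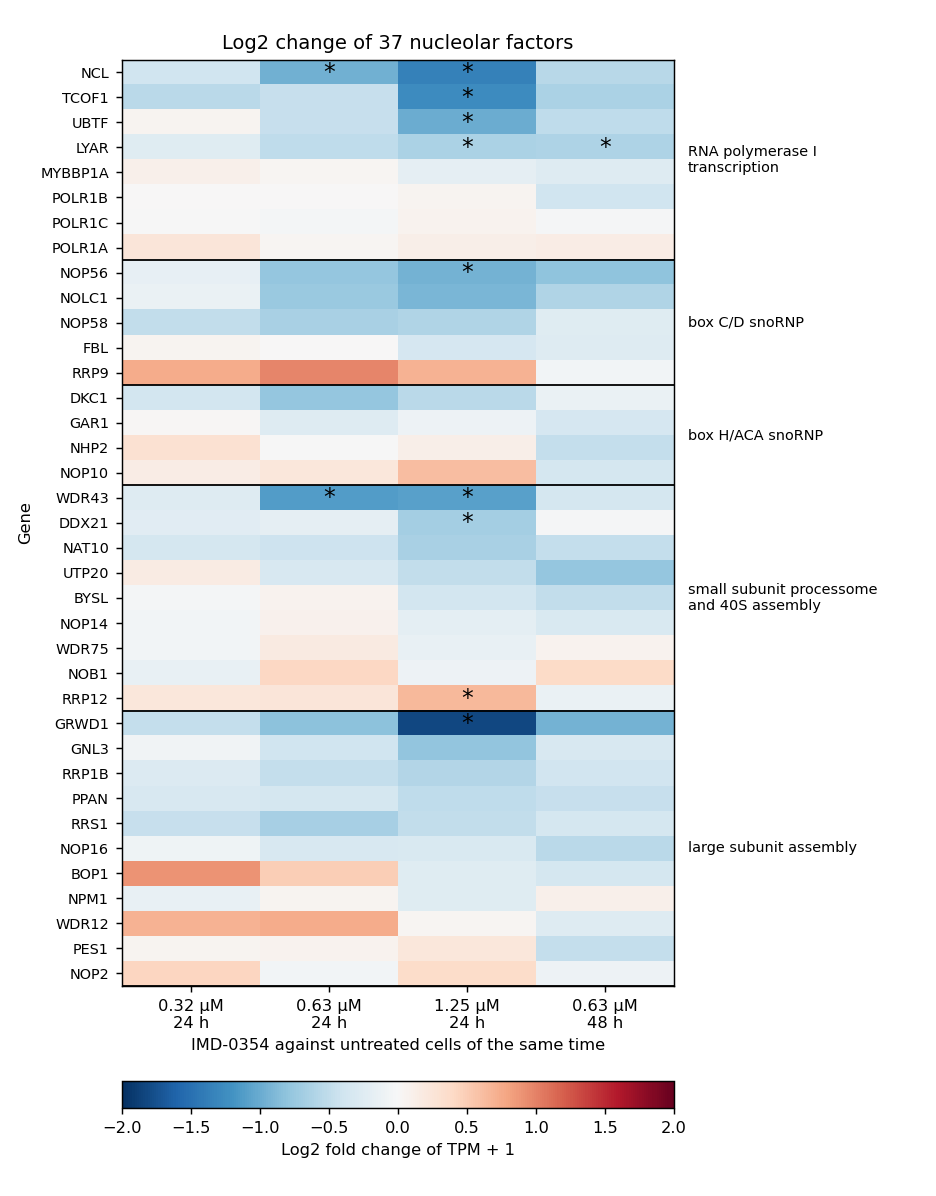
Log2 difference of TPM + 1 between treated and untreated cells of the same time for the 37 genes (rows, by role and ordered by the 1.25 µM value) in 4 comparisons (columns), blue for lower and red for higher, with a star where the adjusted p is under 0.05. The 1.25 µM column holds 9 stars, 8 on blue cells and 1 on the red cell of RRP12, and the 0.32 µM column holds 0.

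**Figure D3:**
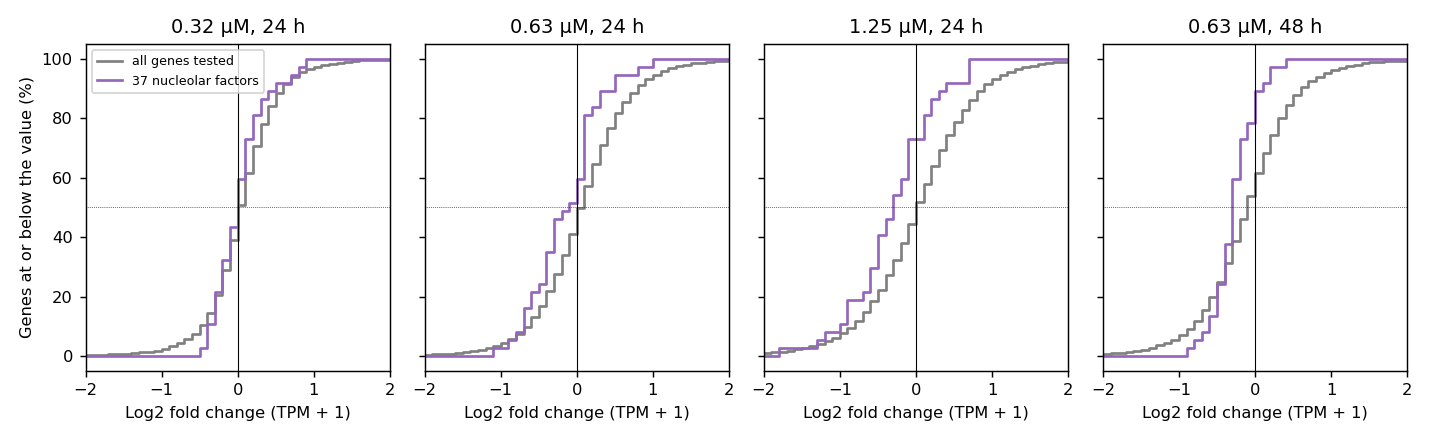
Percent of genes at or below each log2 difference of TPM + 1 from untreated cells, for the 37 genes (purple) and all 14936 tested genes (grey), in 1 panel for each of the 4 treated groups. At 1.25 µM the purple line crosses its median at -0.33 and the grey one at -0.01, and at 0.32 µM the medians are -0.06 and 0.

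The promoters of 4 members are printed because they show which of the searched motifs lie upstream of a gene that fell strongly (NCL, GRWD1), of one that was lower at each dose step (NAT10) and of one with a higher group mean at each step (NOP10). The rise of NOP10 at each step rests on untreated 24 h replicate 2, without which its difference at 0.32 µM was -0.09. Each is the 250 bases before the RefSeq start site in GRCh38.p14, 5' to 3' on the gene's strand. Capitals mark CACGTG (the E-box bound by MYC and its partners) or CCGGAAG (an ETS-type motif) on either strand. NCL lies at chr2:231464485-231464734 (minus strand) and GRWD1 at chr19:48445733-48445982 (plus strand). NAT10 lies at chr11:34105379-34105628 (plus strand) and NOP10 at chr15:34343137-34343386 (minus strand).
NCL: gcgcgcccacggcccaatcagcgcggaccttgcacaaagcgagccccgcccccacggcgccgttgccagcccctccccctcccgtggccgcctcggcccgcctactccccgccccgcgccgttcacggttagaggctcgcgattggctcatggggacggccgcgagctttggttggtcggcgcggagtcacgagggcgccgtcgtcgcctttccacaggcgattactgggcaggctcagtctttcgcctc
GRWD1: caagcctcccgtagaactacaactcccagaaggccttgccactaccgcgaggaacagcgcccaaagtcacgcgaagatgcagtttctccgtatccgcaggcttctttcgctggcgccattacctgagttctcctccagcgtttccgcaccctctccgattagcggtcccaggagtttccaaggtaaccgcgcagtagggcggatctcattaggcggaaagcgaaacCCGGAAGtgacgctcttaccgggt
NAT10: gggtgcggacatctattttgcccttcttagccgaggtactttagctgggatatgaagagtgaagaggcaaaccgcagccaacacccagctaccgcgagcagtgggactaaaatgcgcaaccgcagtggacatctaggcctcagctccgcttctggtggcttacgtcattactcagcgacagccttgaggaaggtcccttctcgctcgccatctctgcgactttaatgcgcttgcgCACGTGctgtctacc
NOP10: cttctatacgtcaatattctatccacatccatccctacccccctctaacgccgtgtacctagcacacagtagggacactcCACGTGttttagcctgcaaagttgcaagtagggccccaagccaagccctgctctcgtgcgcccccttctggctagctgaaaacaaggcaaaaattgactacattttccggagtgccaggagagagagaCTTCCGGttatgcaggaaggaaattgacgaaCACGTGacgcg

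RefSeq windows were matched for 30 of the 37 genes, 38 windows in all since 8 genes have 2. Searched on both strands, CACGTG was in 5 of the 38 (13.2%, against 6.34% of 35116 windows of the same length), those of DDX21, LYAR, NAT10, NOP10 and UTP20. CCGGAAG was in 11 windows of 10 genes (28.9%, against 8.52%), the NRF1 palindrome in 3 (7.89%, against 1.03%) and TATAAA in 1 (2.63%, against 10.7%). The 35116 windows were not limited to genes that passed the expression filter, as all members did. Whether these shares differ from those of expressed genes at large was not tested. The NCL window printed above holds neither CACGTG nor CCGGAAG. NOP10 holds CACGTG at 2 places and differed at 1.25 µM by 0.62 (adjusted p = 0.0811), whereas NAT10, with 1 CACGTG, differed by -0.65 (adjusted p = 0.137). These were 0.39 and -0.39 without untreated 24 h replicate 2. The median difference at 1.25 µM was -0.63 for the 5 genes with CACGTG and -0.20 for the 25 without. It was -0.21 for the 10 with CCGGAAG and -0.30 for the 20 without. Leaving out untreated 24 h replicate 2, these medians were -0.36 and -0.19 for CACGTG, and -0.23 and -0.22 for CCGGAAG.

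Among the 8 members that act in or beside polymerase I transcription, 4 fell at 1.25 µM (50%, against 6.36% of all tested genes). The 3 polymerase subunits did not pass the test. Of the 4, NCL alone kept its call without untreated 24 h replicate 2, when 4.96% of all tested genes fell. NCL encodes nucleolin, which binds ribosomal DNA chromatin and the precursor RNA. Its levels were 594, 1183 and 498 TPM in untreated cells at 24 h, 577, 512 and 516 TPM at 0.32 µM, 372, 385 and 332 TPM at 0.63 µM, and 311, 275 and 242 TPM at 1.25 µM. NCL was lower in every library at 0.63 and 1.25 µM than in any untreated one, by a log2 difference of -0.96 (SE 0.23, adjusted p = 0.0441) and of -1.36 (SE 0.23, adjusted p = 0.00152). Without untreated 24 h replicate 2 these were -0.58 (adjusted p = 0.0779) and -0.98 (adjusted p = 0.000945), and the 1.25 µM call was kept. At 48 h NCL was 521, 517 and 387 TPM in untreated and 337, 327 and 295 TPM in treated cells, which do not overlap, with a log2 difference of -0.56 (adjusted p = 0.17). NCL passed the test at 48 h without untreated 24 h replicate 2, which is in neither 48 h group but enters the shared spread. In that fit 7.73% of all tested genes fell at 48 h.

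TCOF1 encodes treacle, a nucleolar scaffold that joins polymerase I transcription to RNA processing. It was 216, 741 and 197 TPM in untreated cells at 24 h and 178, 135 and 92.7 TPM at 1.25 µM, without overlap, and replicate 2 was far above its partners. At 0.32 and 0.63 µM TCOF1 was 225, 197 and 235 TPM and 254, 242 and 198 TPM, within the untreated range. The log2 difference was -1.27 (SE 0.36, adjusted p = 0.0305) and, without that library, -0.65 (adjusted p = 0.0595). At 48 h TCOF1 was 206, 194 and 203 TPM untreated and 142, 119 and 125.1 TPM treated, without overlap (log2 difference -0.64, adjusted p = 0.33). Without untreated 24 h replicate 2 in the fit, TCOF1 passed the test at 48 h.

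UBTF, the factor that bends ribosomal DNA to admit polymerase I, was 57.3, 48.4 and 24.2 TPM untreated and 28.5, 14.2 and 19.3 TPM at 1.25 µM, with an overlap. Between these doses it was 52.5, 34.5 and 41.4 TPM at 0.32 µM and 28.96, 30.9 and 27.7 TPM at 0.63 µM, all inside the untreated range. Its log2 difference at 1.25 µM was -0.999 (SE 0.30, adjusted p = 0.0432), and it was -0.88 (adjusted p = 0.125) without replicate 2. At 48 h UBTF was 34.5, 23.6 and 35.4 TPM untreated and 27.2, 19.0 and 18.9 TPM treated, which overlap (log2 difference -0.50, adjusted p = 0.376). LYAR, a nucleolar zinc-finger protein that binds ribosomal DNA, was 230, 341 and 190 TPM untreated, 207, 205 and 210 TPM at 0.32 µM, 168, 166 and 184 TPM at 0.63 µM and 152, 162 and 161 TPM at 1.25 µM. LYAR was below every untreated library at both doses and fell at 1.25 µM by a log2 difference of -0.63 (SE 0.18, adjusted p = 0.0289). That difference was -0.40 (adjusted p = 0.0884) without replicate 2. LYAR also fell at 48 h, from 194, 181 and 149 TPM to 114, 127 and 99.2 TPM, by a log2 difference of -0.62 (SE 0.18, adjusted p = 0.0422). This 48 h call was kept with 6 of the 18 libraries left out in turn and in 8 of 13 other settings. The highest adjusted p with 1 library left out was 0.175, without replicate 3 of the 48 h treated group.

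The catalytic core subunits POLR1A and POLR1B and the subunit POLR1C, shared with RNA polymerase III, did not pass the test at any dose. POLR1A was 1.64, 1.28 and 1.80 TPM untreated, 3.45, 1.37 and 1.61 TPM at 0.32 µM, 1.71, 1.85 and 1.39 TPM at 0.63 µM and 2.14, 1.43 and 1.79 TPM at 1.25 µM. At 48 h it was 1.77, 1.33 and 1.26 TPM untreated and 1.36, 3.89 and 0.72 TPM treated. All groups of POLR1A overlap near the filter level, and its difference at 1.25 µM was 0.11 (95% interval -0.62 to 0.84, adjusted p = 0.887). POLR1B and POLR1C were 0.05 (interval -0.36 to 0.47) and 0.07 (interval -0.51 to 0.66) at that dose. MYBBP1A, a MYB-binding nucleolar protein, was -0.18 (adjusted p = 0.634), although its 3 treated libraries lay below the untreated ones.

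Of the 5 box C/D members, NOP56 fell at 1.25 µM (20%, against 6.36% of all tested genes). NOP56 is a core protein of the box C/D particle, and its levels were 643, 818 and 485 TPM untreated, 617, 543 and 548 TPM at 0.32 µM and 335, 337 and 310 TPM at 1.25 µM. The 1.25 µM group lay below all others at 24 h except replicate 3 at 0.63 µM, with a log2 difference of -0.95 (SE 0.25, adjusted p = 0.0237), or -0.77 (adjusted p = 0.0878) without untreated 24 h replicate 2. At 0.63 µM NOP56 was 459, 423 and 265 TPM, also below every untreated library (log2 difference -0.77, adjusted p = 0.124), and at 48 h, with 494, 464 and 311 TPM untreated against 300, 270 and 163 TPM, its difference was -0.81 (adjusted p = 0.0646). NOP56 passed the test at 48 h when untreated 24 h replicate 2 was left out of the fit. NOP58, its partner in the particle, was 277, 951 and 207 TPM untreated and 227, 275 and 254 TPM at 1.25 µM, within the untreated range, with a log2 difference of -0.59 (adjusted p = 0.349). The sign of that difference rests on replicate 2, without which it was 0.07 (adjusted p = 0.89). FBL, fibrillarin, the methyltransferase of the particle, was 441, 368 and 418 TPM untreated, 460, 405 and 406 TPM at 0.32 µM, 375, 401 and 461 TPM at 0.63 µM and 372, 312 and 294 TPM at 1.25 µM (log2 difference at 1.25 µM -0.33, adjusted p = 0.139). At 48 h FBL was 405, 418 and 358 TPM untreated and 369, 334 and 285 TPM treated, and its groups overlap at both of these comparisons. NOLC1, a chaperone that carries both kinds of snoRNP, was 241, 432 and 169 TPM untreated and 137, 141 and 133 TPM at 1.25 µM, without overlap (log2 difference -0.92, adjusted p = 0.0542, and -0.55, adjusted p = 0.218, without replicate 2). RRP9, a protein of the U3 snoRNP, was 33.3, 6.17 and 26.8 TPM untreated, with replicate 2 lowest, and was not called at any dose. Its difference at 1.25 µM was 0.70 with that library and -0.01 without it.

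With all 18 libraries in the fit, none of the 4 box H/ACA members passed the test in any comparison. Without untreated 24 h replicate 2, NHP2 fell at 48 h, where 7.73% of all tested genes fell. DKC1, dyskerin, the pseudouridine synthase, was 749, 1114 and 441 TPM untreated and 540, 482 and 466 TPM at 1.25 µM (log2 difference -0.53, adjusted p = 0.218, and -0.22, adjusted p = 0.652, without replicate 2). The small core protein NOP10 was 272, 198 and 375 TPM untreated and 361, 474 and 433 TPM at 1.25 µM (0.62, adjusted p = 0.0811). The ranges of NOP10 overlapped at one library, and the difference at 48 h was -0.36 (adjusted p = 0.385). Its 48 h groups did not overlap, with 253, 300 and 254 TPM untreated and 222, 227 and 181 TPM treated. GAR1 and NHP2, the other core proteins, differed by -0.11 (interval -0.59 to 0.37) and 0.12 (interval -0.30 to 0.53) at 1.25 µM. The value of NHP2 turned to -0.13 without replicate 2. At 48 h NHP2 was 211, 228 and 204 TPM untreated and 182, 149 and 134 TPM treated, without overlap (log2 difference -0.48, adjusted p = 0.159).

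Of the 9 small subunit factors, WDR43 and DDX21 fell at 1.25 µM (22.2%, against 6.36% of all tested genes) and RRP12 rose (11.1%, against 4.94%). WDR43, a subunit of the early small subunit processome, was 178, 262 and 144 TPM untreated, 180, 134 and 164 TPM at 0.32 µM, 89.6, 116 and 61.0 TPM at 0.63 µM and 113, 83.5 and 72.5 TPM at 1.25 µM. The groups at 0.63 and 1.25 µM lay below the untreated one. The log2 difference was -1.12 (SE 0.26, adjusted p = 0.0364) at 0.63 µM and -1.09 (SE 0.26, adjusted p = 0.0122) at 1.25 µM. Without untreated 24 h replicate 2 the values were -0.89 (adjusted p = 0.125) and -0.85 (adjusted p = 0.0523). At 48 h WDR43 was 127, 120 and 106 TPM untreated and 91.4, 72.9 and 115 TPM treated, which overlap (log2 difference -0.35, adjusted p = 0.486). DDX21, a nucleolar RNA helicase, was 192, 352 and 173 TPM untreated, 190, 188 and 208 TPM at 0.32 µM, 205, 218 and 179 TPM at 0.63 µM and 142, 146 and 138 TPM at 1.25 µM, and only the highest dose was clear of the untreated range. Its log2 difference at 1.25 µM was -0.67 (SE 0.20, adjusted p = 0.0389), or -0.36 (adjusted p = 0.0964) without replicate 2, and at 48 h it was -0.02 (153, 152 and 127 TPM untreated, 135, 135 and 155 TPM treated).

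RRP12, an export factor for the maturing subunits, went the other way. Its levels were 23.4, 23.8 and 21.2 TPM untreated, 27.5, 27.6 and 25.8 TPM at 0.32 µM, 24.9, 28.3 and 27.9 TPM at 0.63 µM and 32.6, 40.6 and 36.0 TPM at 1.25 µM. All 9 treated libraries at 24 h were above the untreated ones, and at 1.25 µM RRP12 rose by 0.65 (SE 0.18, adjusted p = 0.0304), or 0.68 (adjusted p = 0.0463) without replicate 2. At 48 h it was 21.4, 21.8 and 15.1 TPM untreated and 18.6, 20.2 and 13.8 TPM treated, which overlap (log2 difference -0.14, adjusted p = 0.734). The RRP12 locus overlaps the pseudogene RPL34P20 on the same strand, so reads of one may be counted for the other. NOB1, the nuclease that makes the last cut of the small subunit RNA, was higher at 0.63 µM at both times without overlap, with 65.6, 62.2 and 66.6 TPM untreated and 86.5, 81.2 and 92.9 TPM treated at 24 h. The differences of NOB1 were 0.42 (adjusted p = 0.181) at 24 h and 0.38 (adjusted p = 0.174) at 48 h. At 1.25 µM it was 53.9, 68.1 and 59.0 TPM, across the untreated range. NOP14, WDR75, UTP20, NAT10 and BYSL were not called in any comparison, with differences at 1.25 µM from -0.65 (NAT10) to -0.14 (WDR75). Without replicate 2 that of BYSL moved from -0.36 to -0.59.

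Of the 11 large subunit factors, GRWD1 fell at 1.25 µM (9.09%, against 6.36% of all tested genes), with the widest difference among the 37. GRWD1 is a histone-binding WD-repeat protein of the nucleolus that chaperones a large subunit protein. Its levels were 40.5, 36.3 and 28.3 TPM untreated, 28.6, 23.6 and 22.4 TPM at 0.32 µM, 21.8, 26.2 and 12.5 TPM at 0.63 µM and 15.2, 10.7 and 4.35 TPM at 1.25 µM. The groups at 0.63 and 1.25 µM lay clear of the untreated one. The log2 difference at 1.25 µM was -1.83 (SE 0.36, adjusted p = 0.00366), and -1.79 (adjusted p = 0.0126) without replicate 2. At 0.63 µM it was -0.81 (adjusted p = 0.242) and at 48 h -0.94 (adjusted p = 0.131), where 24.4, 35.5 and 17.95 TPM in untreated cells stood against 13.9, 13.7 and 10.4 TPM. The GRWD1 locus overlaps KCNJ14, so reads of one may be counted for the other.

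GNL3, nucleostemin, a nucleolar GTPase, was 228, 329 and 161 TPM untreated and 134, 167 and 104 TPM at 1.25 µM (log2 difference -0.79, adjusted p = 0.0652, and -0.53, adjusted p = 0.239, without replicate 2). NPM1, nucleophosmin, an abundant nucleolar chaperone, was 3391, 4173 and 3413 TPM untreated, 3159, 3327 and 3372 TPM at 0.32 µM, 3765, 3602 and 4035 TPM at 0.63 µM and 3175, 3196 and 2878 TPM at 1.25 µM, below every untreated library at 0.32 and 1.25 µM, and its log2 difference at 1.25 µM was -0.24 (adjusted p = 0.168), or -0.14 (adjusted p = 0.403) without replicate 2. At 48 h NPM1 was 2688, 2366 and 2710 TPM untreated and 2630.0, 2636 and 3064 TPM treated, which overlap. Reads of NPM1 may be split over its 45 named pseudogenes. WDR12, a member of the PES1-BOP1-WDR12 complex, was 48.7, 46.5 and 37.7 TPM untreated, 66.1, 74.4 and 76.1 TPM at 0.32 µM and 67.5, 65.0 and 92.7 TPM at 0.63 µM. It was above every untreated library at both doses (0.70, adjusted p = 0.729, and 0.74, adjusted p = 0.0941), but 36.3, 60.0 and 42.7 TPM at 1.25 µM overlapped them. Its partner BOP1 was 14.4, 5.02 and 15.8 TPM untreated and 18.6, 22.0 and 21.02 TPM at 0.32 µM (0.89, adjusted p = 0.771, and 0.42 without replicate 2), and PES1 was not called in any comparison. NOP2, NOP16, RRS1, RRP1B and PPAN were not called either, with differences at 1.25 µM from -0.59 (RRP1B) to 0.37 (NOP2). Without replicate 2 the difference of BOP1 at 1.25 µM moved from -0.24 to -0.71 (adjusted p = 0.0872), that of RRP1B from -0.59 to -0.37 and that of RRS1 from -0.50 to 0.002.

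**Figure D4:**
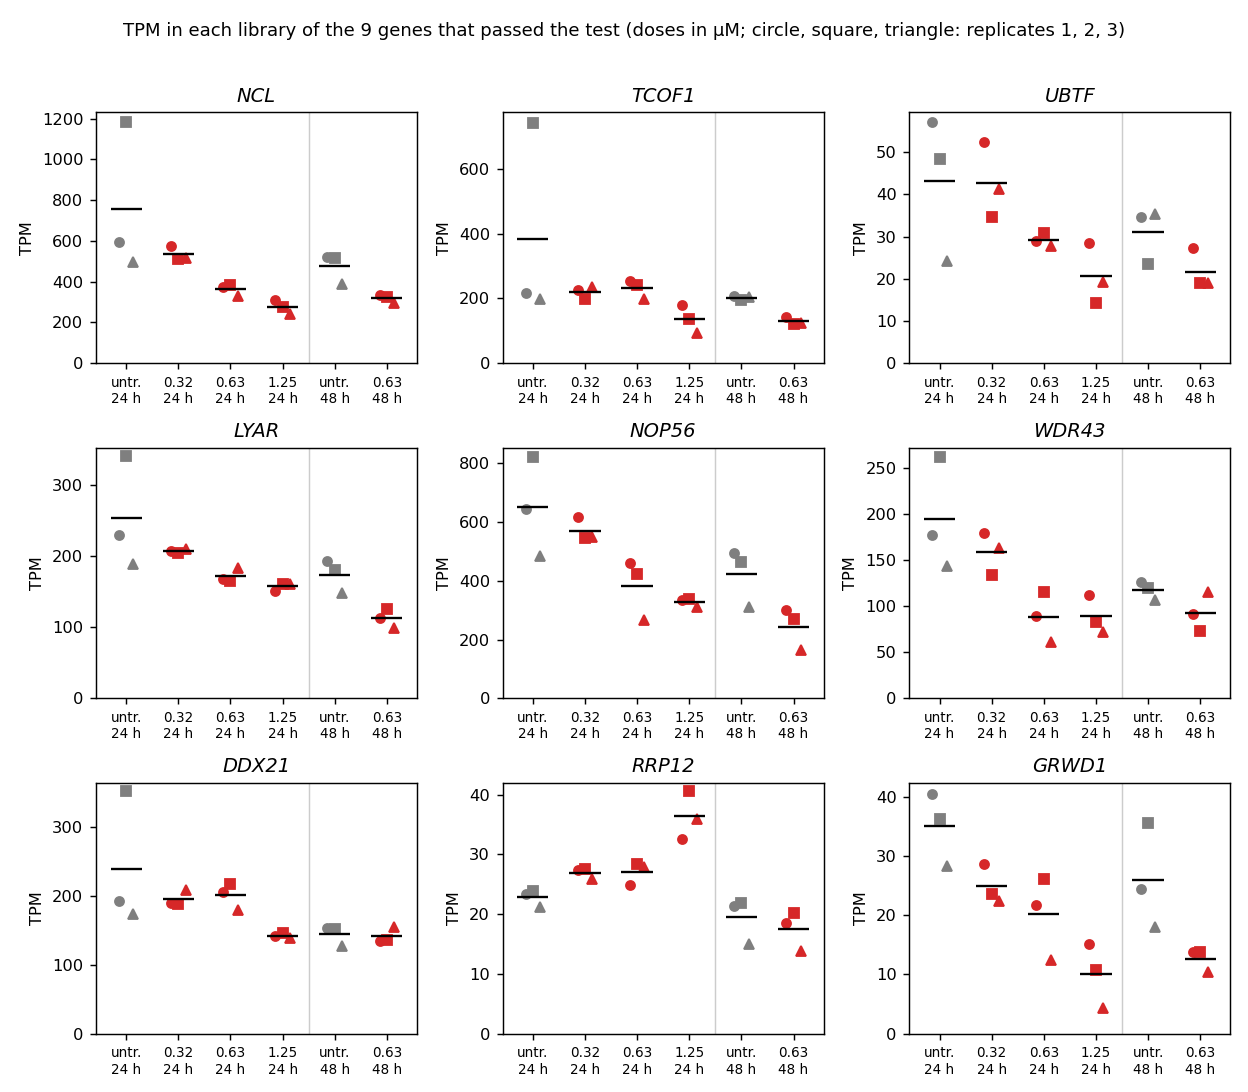
TPM of the 9 genes that passed the test in any comparison with untreated cells, by group, with 1 point per library (grey untreated, red treated; circle, square and triangle for replicates 1, 2 and 3), a black line at the group mean, no error bars, and linear axes from 0. GRWD1 lies between 28.3 and 40.5 TPM in untreated 24 h cells and between 4.35 and 15.2 TPM at 1.25 µM, while RRP12 is at 32.6 to 40.6 TPM there.

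Neither step between doses passed the test for any of the 37 genes (limma). Of all tested genes, 0.556% passed from 0.32 to 0.63 µM (0.154% lower and 0.402% higher) and 1.51% from 0.63 to 1.25 µM (1.04% lower and 0.469% higher). At an unadjusted p under 0.05, 3 of the 37 were lower and 1 higher at the first step (8.11% and 2.7%, against 5.97% and 7.97% of all tested genes), and 8 lower and 1 higher at the second (21.6% and 2.7%, against 9.09% and 6.31%). Without untreated 24 h replicate 2, which is in neither dose group but enters the shared spread, DDX21 and TCOF1 were lower at the second step, with 444 of all tested genes called against 226. Groups of adjacent doses did not overlap for 6 genes lower (9.1% of all tested genes) and 2 higher (11%) at the first step, and for 9 lower (11.1%) and 2 higher (8.94%) at the second. The group means fell at each step over the 4 groups of 24 h for 9 of the 37 (24.3%, against 9.11% of all tested genes): NCL, NOP56, NOLC1, RRP1B, GNL3, GRWD1, NAT10, PPAN and LYAR. They rose at each step for NOP10, PES1, RRP12 and POLR1B (10.8%, against 7.92%). In the absence of untreated 24 h replicate 2, 7 fell at each step (18.9%, against 8.79%), NOP56, NOLC1 and GNL3 leaving the list and FBL joining it. In that case 3 rose (8.11%, against 7.01%), NOP10 leaving the rising list.

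A difference in the effect of 0.63 µM between 24 and 48 h passed the test for 0 of the 37 (interaction in limma), against 0.0335% of all tested genes (0.0201% lower and 0.0134% higher at 48 h). At an unadjusted p under 0.05 0 were higher (2.69% of all tested genes) and 1 was lower (2.7%, against 9.25%), WDR12, with a log2 difference of differences of -0.99 (SE 0.32, adjusted p = 0.219). The 24 h and 48 h comparisons at 0.63 µM have no library in common, and 22 of the 37 genes were below 0 in both (59.5%, against 35.0% of all tested genes), or 21 (56.8%, against 36.1%) without untreated 24 h replicate 2. Taken singly, 22 of the 37 were below 0 at 24 h (49.5% of all tested genes) and 33 at 48 h (60.8%). The shared count therefore partly restates the 48 h shift. Untreated cells at 48 h were lower than at 24 h for 31 of the 37 (53.4% of all tested genes), with a median of -0.26 against -0.03 for all tested genes. None of these passed the test (limma, 0.0134% of all tested genes), and at an unadjusted p under 0.05, 11 were lower (29.7%, against 4.71% of all tested genes) and 0 higher (3.19%). As many genes, 31 of 37, were lower without untreated 24 h replicate 2, with a median of -0.25, but 3 were lower at an unadjusted p under 0.05 (3.49% of all tested genes). DDX21 went from -0.66 to -0.35 and RRS1 from -1.14 to -0.65.

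A second list of 105 ribosome biogenesis factors outside the 37, of which 104 were tested, showed both directions. At 1.25 µM, 7 fell (6.73%) and 6 rose (5.77%), beside 6.36% and 4.94% of all tested genes, with a median of -0.12 for the 104. At 0.63 µM 1 fell (0.962%, against 0.824% of all tested genes), and at 48 h 3 fell (2.88%, against 5.68%) and 1 rose (0.962%, against 1.95%). With untreated 24 h replicate 2 left out, 4 fell and 4 rose at 1.25 µM, 0 changed at 0.63 µM, and 9 fell and 4 rose at 48 h, beside 4.96% lower and 3.7% higher of all tested genes at 1.25 µM and 7.73% and 2.59% at 48 h. POLR1G, a polymerase I subunit, fell from 33.8, 61.2 and 20.8 TPM in untreated cells to 8.23, 14.9 and 9.52 TPM at 1.25 µM (log2 difference -1.64, adjusted p = 0.00407). POLR1H, another polymerase I subunit, rose from 32.9, 9.10 and 29.7 TPM to 56.5, 62.7 and 63.7 TPM (1.498, adjusted p = 0.00869). The kinase RIOK2, which acts late in small subunit maturation, rose from 18.1, 6.25 and 17.2 TPM to 25.7, 41.8 and 38.5 TPM (1.39, adjusted p = 0.015). The helicase DDX52 fell at 0.63 µM from 40.9, 79.4 and 50.3 TPM to 28.2, 28.0 and 16.2 TPM (log2 difference -1.19, adjusted p = 0.0323). In POLR1H and RIOK2 the low value of the untreated group is replicate 2, and in POLR1G and DDX52 the high one is. Without it the values were -1.25 (adjusted p = 0.0158) for POLR1G, 0.94 (adjusted p = 0.0099) for POLR1H, 0.93 (adjusted p = 0.0548) for RIOK2 and -0.92 (adjusted p = 0.11) for DDX52, so the calls of RIOK2 and DDX52 were lost. RRN3, which recruits the polymerase to its promoter and is named after its values were seen, rose from 10.0, 16.9 and 12.3 TPM to 23.9, 22.8 and 25.6 TPM (0.86, adjusted p = 0.0107, and 1.05, adjusted p = 0.00355, without replicate 2). So 2 polymerase I subunits outside the 37 moved in opposite directions.

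Of the 9 genes of the MYC network, 8 were tested. At 0.63 µM for 24 h 1 rose (12.5%, against 1.36% of all tested genes) and 0 fell (against 0.824%). At 1.25 µM 2 rose (25%, against 4.94%) and 0 fell (against 6.36%). After 48 h 1 rose and 1 fell (12.5% each, against 1.95% and 5.68%). MYC was 1.61, 0.84 and 2.83 TPM in untreated cells at 24 h, 6.10, 10.1 and 5.58 TPM at 0.63 µM and 8.47, 9.88 and 10.2 TPM at 1.25 µM, without overlap. It rose by 1.60 (adjusted p = 0.0155) and 1.99 (adjusted p = 0.000687), and at 48 h its difference was 0.49 (adjusted p = 0.399). In the fit without untreated 24 h replicate 2 the MYC values at 24 h were 1.34 (adjusted p = 0.06) and 1.73 (adjusted p = 0.00353), so the 0.63 µM call was lost. MXD1, a MAX partner that opposes MYC, rose at 1.25 µM from 2.77, 0.45 and 3.87 TPM to 34.1, 16.8 and 27.7 TPM (3.13, adjusted p = 0.000401, and 2.61, adjusted p = 0.00145, without replicate 2). In the fit without that library MXD3 fell at 1.25 µM and at 48 h, while MXD1 rose in both comparisons. The untreated 24 h values of MYC and MXD1 lie near the filter level. The size of their log2 differences therefore depends on the 1 TPM added before taking logs. Genes of cell division were lower in the same libraries. Of 10 proliferation genes, 9 fell at 1.25 µM (90%, against 6.36% of all tested genes) and 9 at 48 h (90%, against 5.68%). Their medians were -1.81 and -1.69, against -0.01 and -0.15 for all tested genes. Without untreated 24 h replicate 2, 8 and 10 of 10 fell, against 4.96% and 7.73% of all tested genes. CDK1 was among them and fell from 167, 170 and 190 TPM to 34.2, 31.5 and 15.1 TPM at 1.25 µM. The part of these genes in the changes of the 37 was not tested.

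Many snoRNAs are cut from the introns of host genes that themselves serve the ribosome. Of the 37 genes, 8 (21.6%) held 26 snoRNA genes on the same strand, while 218 of 11491 tested protein-coding genes (1.9%) held any. The 8 are NCL, NOP56, NOP58, DKC1, WDR43, POLR1C, GNL3 and PPAN. Their median difference at 1.25 µM was -0.69, and that of the other 29 was -0.24 (-0.57 and -0.19 without untreated 24 h replicate 2), and 3 of the 8 genes that fell (NCL, NOP56 and WDR43) are among them. PPAN also overlaps the read-through locus with P2RY11, which limits its value.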

How the data were processed

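Transcript abundance was measured by 3' RNA sequencing in 18 libraries of A375 cells. The authors deposited TPM values per gene. The tools, per the submitters' processing notes, are RSEM 1.3.1, STAR 2.7, DESeq2 and cutadapt 1.18. Their build is not given in the sources used here. Columns sum to about 1000000, and depth is unknown. The values were turned into log2(TPM + 1) and fitted with limma 3.58.1 in R 4.3.3 (1 mean per group, trended variance, 12 residual degrees of freedom). Genes needed at least 1 TPM in at least 3 libraries, leaving 14936. Two-sided p-values were adjusted by Benjamini-Hochberg over all of them in each of 8 comparisons, with a threshold of 0.05. A table of gene names matched 56558 of 60504 identifiers and GENCODE 29 (GRCh38) matched 56996. On simulated data, 93 of 100 genes changed by 2 log2 units and 43 of 100 changed by 1 were recovered at 1.25 µM. Tried alternatives (13, and 18 left-out libraries) are given in the closing section. Values of other lists, motifs and dose order without untreated 24 h replicate 2 were added after seeing the data. Named with full values were the members past the threshold in a comparison with untreated cells and NCL, NPM1, FBL, POLR1A and UBTF, and of other lists up to 4 passing genes with the largest change. Others were named after their values were seen. The members and lists were chosen with earlier results of these data known.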

Additional observations from a re-analysis of the deposited data

How the results depend on the processing

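TPM carries no depth, so the precision of low genes is unknown. NCL and GRWD1 at 1.25 µM kept their calls when each of the 18 libraries was left out (adjusted p at most 0.0101 and 0.0184) and in 12 of 13 other settings, and lost them only in a fit of the compared groups alone (0.119 and 0.111). The count of members past the threshold moved as follows, from 2 at 0.63 µM 24 h, 9 at 1.25 µM, 1 at 48 h and 0 for 1.25 against 0.63 µM. With no filter it was 0 at 0.63 µM 24 h and 0 at 48 h, and with a 5 TPM filter 2 at 48 h. With no trend it was 0 at 0.63 µM 24 h and 0 at 48 h. With only the compared groups it was 0 at 0.63 µM 24 h and 0 at 1.25 µM, while over all genes 0, 171 and 1104 passed at 0.63 µM 24 h, 1.25 µM and 48 h, against 326, 1688 and 1140. Median-of-ratios scaling gave 0 at 48 h, quantile scaling 0 at 48 h and 1 for 1.25 against 0.63 µM, and library weights 6 at 48 h. The 45 same-numbered pairs had deviations correlated at -0.09 to 0.12 (median 0.026, against -0.017 for other pairs), so the numbers were not taken as pairs; 13 of 18 libraries correlated best with their own number, a hint from the data and not from the design. With the replicate block the count was 3 at 0.63 µM 24 h, 11 at 1.25 µM and 3 at 48 h. Without untreated 24 h replicates 2 and 3, when the lone untreated library is assumed to vary like the other groups, it was 0 at 0.63 µM, 3 at 1.25 µM, 4 at 48 h and 2 for 1.25 against 0.63 µM. Leaving out 1 library at a time gave 0 to 4 at 0.63 µM 24 h, 2 to 14 at 1.25 µM (2 without 1.25 µM replicate 3, 3 without untreated 24 h replicate 2 or 1.25 µM replicate 2, 14 without untreated 24 h replicate 3), 0 to 5 at 48 h (5 without untreated 24 h replicate 2) and 0 to 2 for 1.25 against 0.63 µM. Over all tested genes these left-out fits called 51 to 490 at 0.63 µM 24 h and 960 to 1717 at 1.25 µM. They called 557 to 1542 at 48 h and 82 to 444 for 1.25 against 0.63 µM. Where a setting has no count over all genes beside it, its count of members cannot be read as particular to them. None of the called or preset members changed direction while called. Of 1484 values of named members over the alternatives, 1360 kept their side of the threshold, 105 lost it and 19 gained it. Most of the 1484 belong to comparisons without a call, where no call could be lost, so these totals do not measure how stable the calls were. Call by call, from 4 (NCL at 0.63 µM 24 h) to 18 of 18 left-out fits kept it, and from 7 (DDX21 at 1.25 µM) to 12 of 13 other settings. The causes were not tested.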

Other observations

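A large share of the TPM came from 4 rows on chromosome 21 that lie inside the 18S ribosomal RNA genes or a pseudogene of them. They took 14.4 to 20.2% of all TPM in untreated cells at 24 h, 18.8 to 19.9% at 0.32 µM, 14.2 to 14.3% at 0.63 µM and 13.1 to 17.1% at 1.25 µM. In untreated cells at 48 h they took 22.6 to 24.6%, and in treated cells 22.6 to 24.8%. Of these rows 3 hold identical values in every library. Rescaling without these rows left 2 members called at 0.63 µM 24 h and gave 11 at 1.25 µM, 10 lower and 1 higher. Over all tested genes at 1.25 µM the split of lower against higher calls moved from 950 against 738 to 1100 against 614. The split of lower against higher calls at 0.63 µM 24 h moved from 123 against 203 to 183 against 144.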
